A study of Drosophila melanogaster and Drosophila ananassae and Drosophila pseudoobscura with 52 samples.

Results

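Editing levels of D. simulans (D.sim) and D. yakuba (D.yak) were set side by side at 452 of the 2380 exonic A-to-I editing sites listed for the Drosophila genus. These are the sites with a deposited level in both species in the same sex. Males had such a pair of levels at 363 sites, females at 418 and both sexes at 329, which left 34 sites measured in males only and 89 in females only. Sites within 500 bp of each other were joined into a locus, and the 452 sites fell into 203 loci. The samples were whole bodies of adults 5 days old, 10 flies each, from 1 stock per species (UCSD stock:14021-0251.011 for D.sim and UCSD stock:14021-0261.01 for D.yak), with 2 male and 2 female mmPCR-seq libraries of D.sim and as many of D.yak, so stock and species cannot be told apart. D. melanogaster (D.mel), sampled in the same way (UCSD stock:14021-0231.69), served as the outside value, and 294 of the 329 sites also had a D.mel level in both sexes. Males of 8 inbred D.mel lines (DGRP), also 5 days old and with 2 libraries per line, gave replicate and strain values. In 1 of these lines both value columns carry the same replicate label, so whether they are separate biological replicates is not known. Levels of D. ananassae (UCSD stock:14024-0371.13) and D. virilis (UCSD stock:15010-1051.09) are cited at single sites.

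In A-to-I editing, the enzyme ADAR deaminates adenosines in double-stranded RNA to inosine, which ribosomes and reverse transcriptase read as guanosine. The double strand forms where the transcript folds back on a complementary stretch, often in an intron or the same exon, and adenosines close together on one strand are frequently edited as a cluster. Drosophila carries a single Adar gene, which acts mainly in the nervous system, and many of its targets are channel, receptor and synaptic transcripts. D.mel and D.sim are sister lineages within the melanogaster subgroup, and D.yak is an outgroup to the pair. A D.mel level next to that of D.yak therefore places a change on the D.sim branch by parsimony, whereas a D.mel level next to that of D.sim leaves the D.yak branch and the branch shared by D.mel and D.sim. Parsimony of this kind assumes 1 change per site.

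mmPCR-seq amplifies cDNA at chosen loci by microfluidic multiplex PCR and sequences the amplicons. All D.sim and D.yak amplicons came from primers written for the D.mel genome, at loci chosen because they were edited in D.mel, so a site edited in D.sim or D.yak but not in D.mel would be measured mainly where it lies beside a D.mel site. Of the 452 sites, 225 were themselves the target of a primer pair and 444 lay within 100 bp of such a target. The pairs that cover the main loci of the comparison are shown here to identify these amplicons, as the study lists them for D.mel, with the position of the targeted adenosine in dm3.
Chromosome 4, position 768364, plus strand, forward: gtcgctgaggttttacctagt
Chromosome 4, position 768364, plus strand, reverse: tataggatccccgccatca
Chromosome 3R, position 15056822, minus strand, forward: ttagtctgttggaggcgttga
Chromosome 3R, position 15056822, minus strand, reverse: cgatctggcccatcttgaac
Chromosome 3L, position 9826391, plus strand, forward: gcaatactacagcaggtgtgac
Chromosome 3L, position 9826391, plus strand, reverse: tggtctccaatctaagccatac
Chromosome X, position 17824691, minus strand, forward: accggttatcgtcagtaatttca
Chromosome X, position 17824691, minus strand, reverse: aatgactgctgtgtcctgaga
Chromosome 3R, position 20501385, plus strand, forward: ctggagaactctggcgatcc
Chromosome 3R, position 20501385, plus strand, reverse: ccgacgagttcaattatctcc
Chromosome 3R, position 20533418, plus strand, forward: gccattaaatgcgctgctct
Chromosome 3R, position 20533418, plus strand, reverse: atgatgtgggaagcaatcagt
The adenosines at 15056818 and 15056819 lie 4 and 3 bp from the 3R target 15056822, and those at 9826394 and 9826400 lie 3 and 9 bp from the 3L target 9826391. No annotation of build dm3 was used, so the sites are given by chromosome and position without a gene name.

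Each deposited value is an editing level, the share of reads at a site that carry the edited base, and the tables give 1 such value per species and sex. No level has an error of its own, its read depth beyond the minimum of 50 is unknown, and counting intervals cannot be given. Differences are given in percentage points as D.yak minus D.sim. Whether the D.sim or D.yak genome carries an A at each site was not examined here, so a level near 0% at a lost adenosine and one at an unedited adenosine cannot be told apart, nor can a level near 100% be told from a genomic G. An exact 0 was rare, with 6 D.sim and 2 D.yak sites in males and 2 D.sim and 3 D.yak sites in females.

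D.sim and D.yak had similar levels at most sites, and the largest departures ran in both directions. The median difference was -0.25 percentage points in males (363 sites, quartiles -4.22 and 1.62) and -0.15 in females (418 sites, quartiles -2.1 and 1.09). In males, 204 sites were higher in D.sim, 155 in D.yak and 4 equal. In females, 240 sites were higher in D.sim, 168 in D.yak and 10 equal. The median absolute difference was 3 percentage points in males and 1.65 in females. Across sites, Spearman's rho between the species was 0.830 in males and 0.854 in females, and Pearson's r was 0.932 and 0.965, as descriptions over sites that share amplicons and libraries.

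**Figure D1:**
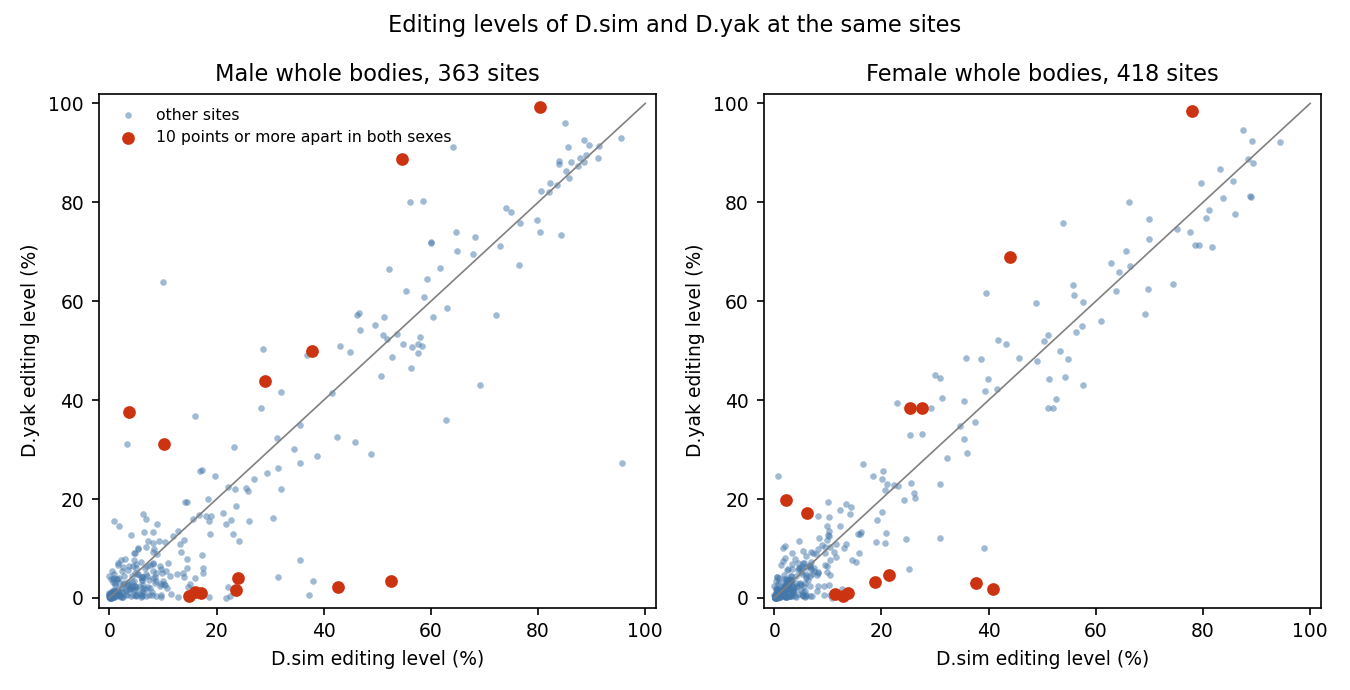
Editing level (%) of D.sim on the x axis against D.yak on the y axis, with 1 point per site in males (left, 363 sites) and females (right, 418 sites) and the line of equal levels in grey. Red points are the 13 sites at least 10 percentage points apart in the same direction in both sexes, 7 of them below the line and 6 above it.

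Levels were lower in females, and so were the species differences. Over the 329 sites measured in both sexes, the median D.sim level was 6.75% in males and 3.05% in females, and the median D.yak level was 4.25% and 2.45%. Males were higher than females at 249 of these sites in D.sim and at 228 in D.yak. The median absolute species difference at the same sites was 2.75 percentage points in males and 1.3 in females. The sign of the difference was the same in both sexes at 221 sites (67.2%) and opposite at 95.

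The size of a difference depended on the level. At the 96 sites with a mean level under 2%, the median absolute difference of the means was 0.275 percentage points and the largest 3.23. It was 2.56 at the 124 sites from 2% to 10%, 5.83 at the 68 sites from 10% to 50% and 3.88 at the 41 sites above 50%. Sites from 10% to 50% held 8 of the 13 sites past 10 percentage points in both sexes. Below 50%, more sites were higher in D.sim than in D.yak. The numbers were 59 against 31 under 2%, 81 against 43 from 2% to 10% and 40 against 28 from 10% to 50%. Above 50% they were 21 and 20.

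To judge differences against a spread, the values of single libraries in the D.mel inbred lines (DGRP) served as a measure of replicate and strain variation, since the species tables hold no replicates. At 255 sites with a male level in D.sim and D.yak and a mean in all 8 lines, the median absolute species difference was 3.35 percentage points. Libraries of the same line differed at these sites by a median of 1 to 1.8 percentage points, depending on the line, and the means of any 2 lines by a median of 0.95 to 2.1 over the 28 pairs. The line whose columns share a replicate label is included, and its library difference may not be one between biological replicates. At least 10 percentage points separated D.yak from D.sim at 18.4% of the sites, against 1.96% to 12.9% for a pair of lines. The species difference exceeded the whole range of the 8 line means at 107 of the 255 sites (42.0%). The spread of the lines is that of D.mel males and not an error of the D.sim or D.yak values.

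**Figure D2:**
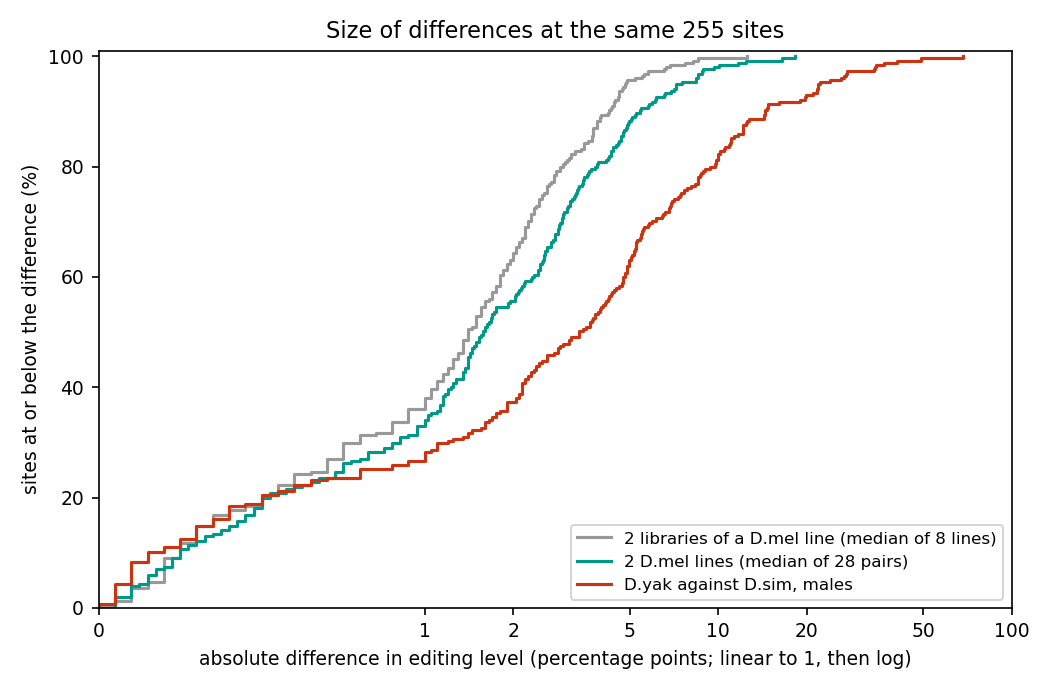
Share of the 255 sites (y axis, %) at or below an absolute difference in editing level (x axis, percentage points, linear up to 1 and logarithmic beyond). The red line is male D.yak against D.sim, the green line is the median over 28 pairs of D.mel lines at each site and the grey line the median over 8 lines of the difference between libraries. The red line lies to the right of the others from 1 percentage point upward, with a median of 3.35. It shows 1 difference per site, whereas the others show medians per site, which trims their tails, so the lines are not like for like.

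A species difference was tested at 250 sites with a mean level of at least 1% and a value in both sexes of D.mel, D.sim and D.yak, with limma's moderated test on the log2 odds of editing and sex as a block. The sexes were the only repeated measurement, so the spread in this test is how far the differences among the 3 species depart between the sexes. It was moderated toward that of the other sites and is not the spread between animals. Levels differed at 31 sites (12.4%) of 21 loci at an adjusted p-value under 0.05, with 24 higher in D.sim (9.6%) and 7 higher in D.yak (2.8%). An offset of 0.05 in place of 0.01, added to the fractions before the log, gave 18 sites, 12 higher in D.sim and 6 in D.yak. The fit without the sex block gave 14, and untransformed levels gave 8, of which 7 were among the 31. Of the 31 sites, 21 differed by under 10 percentage points, and the median absolute difference was 6.3 percentage points against 2.23 at the other 219 sites.

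By size alone, 13 of the 329 sites (3.95%) differed by at least 10 percentage points in the same direction in both sexes, a limit of the size that the study's methods allow between replicates. D.sim was higher at 7 of them (2.13%) and D.yak at 6 (1.82%), and they fell into 9 loci. A test was possible at 10 of the 13, and 8 passed it. The male species difference was larger than the range of all 8 D.mel line means at 12 of the 13. The rule itself asks for at least 10 percentage points in each sex, and the median range of the line means was 5.1 at the 255 sites above. Neither count is therefore independent of the rule.

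**Figure D3:**
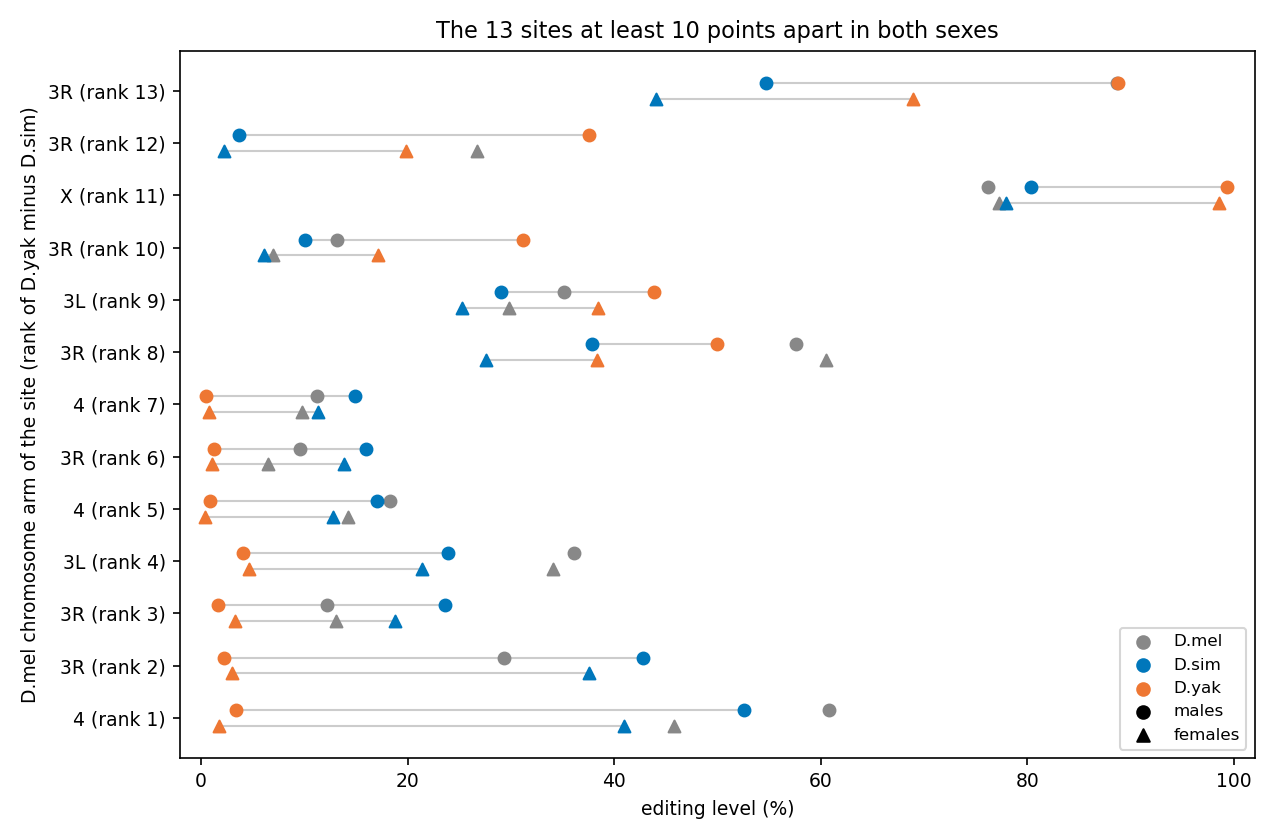
Editing level (%, x axis) at the 13 sites at least 10 percentage points apart in both sexes, 1 row per site by D.mel chromosome, ordered by D.yak minus D.sim from -44.2 at the bottom to 29.5 percentage points at the top. Colors mark the species and shapes the sex, and grey lines join D.sim and D.yak of the same sex. In the lower 7 rows D.yak stands at 4.65% or less in both sexes, and in the upper 6 rows it stands to the right of D.sim.

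The site with the widest gap lies on chromosome 4 at position 768364. Its level was 52.6% in D.sim males and 40.9% in females of that species, against 3.4% and 1.75% in D.yak. D.mel stood on the side of D.sim, at 60.8% in males and 45.75% in females, and the DGRP line means ran from 56.65% to 68.55%. The difference was -4.64 ± 0.23 on the log2 odds scale (SE, limma adjusted p = 0.00111). Beyond the subgroup, D. ananassae (D.ana) was at 0.4% in males and 0.2% in females, whereas D. virilis males were at 55.9%.

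Low levels in D.yak were shared by 3 further sites of the same chromosome that lie within 77 bp of each other. Position 787890 was at 17.05% and 12.8% in D.sim males and females and at 0.9% and 0.4% in D.yak (limma adjusted p = 0.00208). Position 787813 was at 14.9% and 11.3% in D.sim and at 0.45% and 0.8% in D.yak (limma adjusted p = 0.00332). Position 787825, 12 bp away, fell short of 10 percentage points but passed the test, with 6.8% and 5.8% in D.sim against 0.35% and 0.25% in D.yak (limma adjusted p = 0.00332, and 0.0909 on untransformed levels). D.mel was near D.sim at all 3 sites, with male levels of 18.3%, 11.25% and 7.95%, and D.ana was at 0.95% or less in both sexes.
Chromosome 4 thus held 4 calls among its 5 tested sites, beside 12.4% of all tested sites, but 3 of the 4 share 1 locus. The other tested site, at position 895009, had no such gap in males, at 31.35% in D.sim and 32.35% in D.yak, and female levels of 30.9% and 12.15% (limma adjusted p = 0.320).

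Adjacent adenosines on 3R were all low in D.yak. At position 15056819 the level was 42.75% in males and 37.6% in females of D.sim, against 2.25% and 2.95% in D.yak, a mean difference of -37.6 percentage points. It had no D.mel female level and was left out of the test, and D.mel males were at 29.3%. Position 15056818, the adjoining base, was at 23.6% and 18.75% in D.sim and at 1.65% and 3.25% in D.yak (limma adjusted p = 0.00678). Position 15056822 was at 15.95% and 13.8% in D.sim and at 1.3% and 1.1% in D.yak (limma adjusted p = 0.00307). At all 3 sites the D.mel level lay between the species, and D.ana was at 0.6% or less in both sexes.
The order of the 3 sites by level, highest at 15056819, was the same in D.sim males and females and in D.mel males. In D.yak, 15056818 was the highest of the 3 in females and 15056819 in males, at levels of 3.25% or less.

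On 3L, sites a few bases apart differed from each other in the size of the species gap. Position 9826394 was at 23.95% and 21.35% in D.sim males and females and at 4.1% and 4.65% in D.yak (limma adjusted p = 0.00488). Position 9826400, 6 bp away, was at 25.9% and 23.1% in D.sim and at 21.65% and 22.7% in D.yak, close to 9826394 in D.sim and far above it in D.yak (limma adjusted p = 0.635 for 9826400). Its neighbor at 9826401 was at 57.9% and 53.35% in D.sim and at 52.75% and 49.85% in D.yak (limma adjusted p = 0.484). Lower in D.yak again were 9826391, with 5.05% and 4.5% in D.sim and 0.55% and 0.85% in D.yak (limma adjusted p = 0.0127, and 0.133 on untransformed levels), and 9826406, with 2.5% and 2.1% against 0.2% and 0.25% (limma adjusted p = 0.0195, but 0.112 with an offset of 0.05 and 0.318 on untransformed levels).
The D.mel stock was above both species at 9826391, 9826394, 9826400, 9826401 and 9826406, with 36.1% in males at 9826394 and 61.9% at 9826400. The D.mel lines did not share this at every site. Their means ran from 7.1% to 22.35% at 9826394, all below D.sim males, from 2.9% to 5.1% at 9826391, where the stock males were at 14.55%, and from 33.85% to 45.55% at 9826400, above D.sim. At 9826559, 165 bp from 9826394, D.sim males were at 37.3%, D.yak males at 0.55% and D.mel males at 49.9%. This site had no D.yak female level, and the 3 sites within 7 bp of it were at 2% or less in all measured values of D.sim and D.yak.

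**Figure D4:**
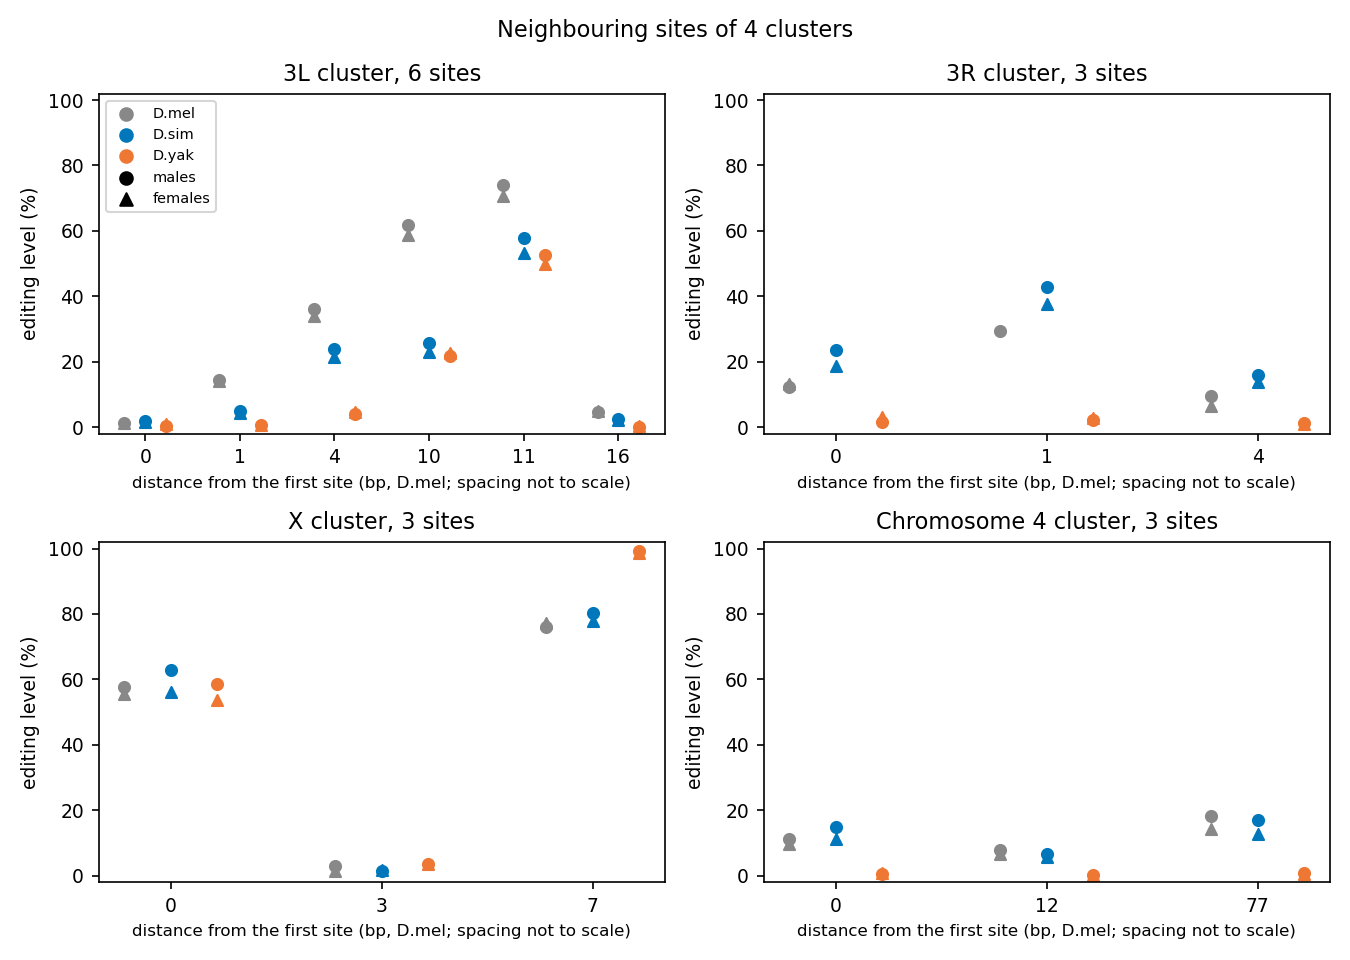
Editing level (%, y axis) of neighboring sites in 4 clusters, with sites ordered by their distance in bp from the first site of the cluster in D.mel (x axis, spacing not to scale). Colors mark the species and shapes the sex. In the 3R and chromosome 4 clusters D.yak lies at 3.25% or less at every site, in the 3L cluster it is near D.sim at the sites 10 and 11 bp from the first, and in the X cluster it departs at the last site only.

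Among the sites higher in D.yak, X position 17824691 had a D.yak level near 100%, which cannot be told from a genomic G here. The level was 99.35% in D.yak males and 98.55% in D.yak females, against 80.35% and 77.9% in D.sim and 76.15% and 77.25% in D.mel (3.76 ± 0.27 on the log2 odds scale, SE, limma adjusted p = 0.00240). The line means of D.mel ran from 76.2% to 86.65%, and D.ana females were at 79.6%. Position 17824684, 7 bp away, was at 62.95% and 56.25% in D.sim and at 58.65% and 53.75% in D.yak (limma adjusted p = 0.601). Position 17824687, between them, was at 1.4% and 1.9% in D.sim and at 3.75% in both sexes of D.yak (limma adjusted p = 0.129). Position 17824684 belonged to the 5 mid-level sites with the smallest species difference.

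Among the 6 sites higher in D.yak, the largest mean difference, 29.5 percentage points, was at 3R position 20501385, with 54.65% in males and 44.05% in females of D.sim against 88.75% and 68.95% in D.yak. D.mel males were at 88.65%, with line means from 62.25% to 90.45%, and D.ana at 88.5% and 87.8% in males and females, so D.sim was the low species among the 4 in males. At 3R position 20533418 the level was 3.7% and 2.25% in D.sim and 37.55% and 19.85% in D.yak, and D.mel females were at 26.7%. Neither site had a D.mel value in both sexes, and neither was tested. In both, the D.mel value that exists stood away from D.sim.
Position 20533145 of the same arm, at 37.8% and 27.6% in D.sim and 49.9% and 38.35% in D.yak, was higher still in D.mel, at 57.55% and 60.5%, with line means from 44.3% to 57.3% (limma adjusted p = 0.188). The listed neighbors of these 3 sites were at 1.8% or less in D.sim and D.yak, so their differences were small by necessity. Position 20501386, the base after 20501385, was at 0.9% in D.sim males and 1.4% in D.yak males, 20533158 at 0.55% and 0.95%, and 20533420 at 0.15% and 0.1%.

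The remaining pair of sites past 10 percentage points lay within clusters. At 3R position 6410657, D.yak was at 31.2% in males and 17.1% in females, D.sim at 10.1% and 6.1%, and D.mel close to D.sim at 13.2% and 6.95% (limma adjusted p = 0.0132). It was not past the threshold without the sex block (limma adjusted p = 0.272) or on untransformed levels (0.0909). Position 6410574 of the same locus ran the other way, with 13.7% and 9.25% in D.sim against 5.05% and 2.4% in D.yak (limma adjusted p = 0.0195), and D.mel at 1.4% and 0.85%. At 3L position 4369185, D.sim was at 29% and 25.25%, D.yak at 43.8% and 38.4% and the D.mel stock between them at 35.15% and 29.8% (limma adjusted p = 0.0677). The median of the D.mel line means was 41.8%, near D.yak males. This site passed with an offset of 0.05 (limma adjusted p = 0.0400), on untransformed levels (0.0273) and at a mean level of at least 5% (0.0407). It did not pass without the sex block (0.278), with D.sim and D.yak alone (0.261), with an offset of 0.001 (0.0812) or without the low-level filter (0.0566).
The adjoining base, 4369184, was high in both species, at 64.6% and 62.8% in D.sim and 73.95% and 67.75% in D.yak (limma adjusted p = 0.234). Position 4369162 separated D.mel from both, with 63% and 56.7% in D.mel against 2.75% and 3.1% in D.sim and 3% and 3.65% in D.yak.

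Outside these loci, the 31 tested calls were mostly small levels that were smaller still in D.yak. The 3L sites 6942788 and 6942790 were at 10.45% and 10.7% in D.sim males and at 2.65% and 2% in D.yak males (limma adjusted p = 0.0287 and 0.0205). Position 6942789, the base between them, had no such gap, at 1.8% in D.sim males and 3% in D.yak males (limma adjusted p = 0.784). The 3R sites 4212460 and 4212480 were at 9.65% and 9.7% in D.sim males and at 0.2% and 0.65% in D.yak males (limma adjusted p = 0.0127 for each), and D.mel was higher than both species there, at 33.95% and 29.35%. At 2L position 9733338, D.sim alone was raised, at 7.9% and 6% in males and females against 0.65% in both sexes of D.yak and 0.3% and 0.4% in D.mel (limma adjusted p = 0.00643). Higher in D.yak were adjacent sites on 2R, 4771246 and 4771247, at 6.65% and 7.75% in D.yak males and 1.6% and 2.2% in D.sim males (limma adjusted p = 0.0133 for each, and 0.0947 and 0.0909 on untransformed levels). The examples of this paragraph were chosen after their values were seen, apart from the 2R sites.

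Sites next to each other tended to depart in the same direction. Among pairs of sites within 50 bp whose mean differences were both at least 2 percentage points, 57 of 71 (80.3%) had the same sign. The share was 59.7% (43 of 72 pairs) at 51 to 500 bp and 51% (1355 of 2659 pairs) at over 1 kb on the same chromosome. Without the minimum of 2 percentage points, the shares were 64.4%, 54.7% and 51.9%. Sites of a pair within 50 bp share amplicon and reads, and a site enters several pairs.

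The D.mel level was used to place each difference. Of the 13 sites, 10 had D.mel in both sexes, and D.mel lay with D.sim at 5, between the species at 3, beyond D.sim at 1 and beyond D.yak at 1. The site beyond D.sim was 3L position 9826394, where it rested on the D.mel stock. It lay with D.yak at 0 of the 10, although the male values alone placed it there at 1 of 12 sites, 3R position 20501385. With the median of the 8 D.mel line means in place of the stock, in males, D.mel lay with D.sim at 4 of the 13 sites, with D.yak at 2, between at 7 and beyond either species at 0, a comparison chosen after seeing the data. Among the 31 tested calls, the D.mel stock lay with D.sim at 13, with D.yak at 2, between at 7, beyond D.sim at 8 and beyond D.yak at 1. Of the 7 calls higher in D.yak, 6 had D.mel with D.sim, and of the 24 calls higher in D.sim, D.mel lay with D.sim at 7 and beyond it at 8.

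Over all 294 sites with the 3 species in both sexes, D.mel was nearer D.sim than D.yak at 168 sites, nearer D.yak at 118 and as near both at 8. D.yak, which is equally distant from the other species by descent, was nearer D.sim at 153 and nearer D.mel at 137. At these sites male rho was 0.810 between D.sim and D.yak, 0.835 between D.mel and D.sim and 0.703 between D.mel and D.yak, and the female values were 0.862, 0.869 and 0.766. At the 47 sites with at least 10 percentage points between the outermost of the 3 species, the species farthest from the other pair, by the mean of the sexes, was D.mel at 24, D.yak at 19 and D.sim at 3. This order depended on the limit. At 5 percentage points the farthest was D.yak at 49 of 110 sites, D.mel at 36 and D.sim at 24. Over all 294 sites it was D.yak at 119, D.mel at 86 and D.sim at 82. Nor did the order hold in males at another set of sites, where sex and sites changed together. At 239 sites with male levels of all 3 species and of the 8 lines, 65 had outer levels at least 10 percentage points apart, and the farthest was D.yak at 33, D.mel at 17 and D.sim at 15, or 31, 16 and 15 of 62 with the line median for D.mel. The loci were chosen for editing in D.mel, and the part of that choice in these orders was not tested.

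Presence of editing in one species and absence in the other was nearly one-sided. With presence at 10% or more in at least 1 sex and absence under 1.5% in every measured sex, 11 sites were present in D.sim and absent in D.yak, and 1 was present in D.yak and absent in D.sim. Among the other sites, 162 were present at 10% in both species, and 77 were under 1.5% in both. At presence of 5% the numbers were 31 and 2, and among the 329 sites of both sexes they were 6 and 1. D.mel reached 2% at 8 of the 10 one-sided D.sim sites where it was measured. Reaching 2% was common at these loci: over the 329 sites, the median D.mel level was 7.225% in males (306 measured) and 3.1% in females (311 measured). The part of the choice of loci in this count was not tested.
After 3L position 9826559, described above, the highest of these D.sim levels were male ones. At 2L position 11796346 D.sim males were at 22.55% and D.yak males at 0.35%, but the female levels were 2% and 0.25%. At 3R position 482227 they were 21.7% and 0.05% in males and 2.85% and 0.35% in females. Both were above the threshold (limma adjusted p = 0.0800 and 0.0669), and without the sex block the values were 0.378 and 0.290. They passed it when D.sim and D.yak alone were fitted, a fit that took little account of how far the sexes disagreed. The single site of the other direction, 3L position 16104687, was at 15.65% in D.yak males and at 0.8% or less in D.yak females and in D.sim (limma adjusted p = 0.266). The female difference at 16104687 was 0. With D.sim and D.yak alone it had a limma adjusted p of 0.00536. That fit gave the same value to 3R position 6410657, which differed by 21.1 and 11 percentage points in males and females. Its neighbor at 16104689, 2 bp away, was at 36.85% in D.yak males and 16% in D.sim males, and at 1.8% and 2.65% in females.

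Differences seen in 1 sex were more often male. Of the 54 sites past 10 percentage points in at least 1 sex, 30 passed in males only, 10 in females only and 13 in both with the same sign. The widest male gap of this kind was at 3R position 14180920, where D.yak was at 63.9% in males and 25.75% in females and D.sim at 10.05% and 20.35%. At 2R position 9064746 D.yak males were at 31.1% and D.sim males at 3.35%, with female levels of 4.25% and 0.45% (limma adjusted p = 0.0244). The 2R site at 9064813, of the same locus, ran the other way in males, at 2.2% in D.yak and 22.2% in D.sim. A female difference led at 2R position 9697052, with 61.75% in D.yak and 39.6% in D.sim females and 60.95% and 58.75% in males. Whether the species difference itself differs between the sexes was not tested, since no replicates are given. These examples were also chosen after their values were seen.

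Of the 123 sites measured in 1 sex only, 27 were past 10 percentage points, 18 of them higher in D.sim. X position 14166129 had the lowest difference of all, with 95.6% in D.sim males and 27.35% in D.yak males, and D.yak females stood at 64.4%. At X position 21904549, D.yak males were at 91.2% and D.sim males at 64.05%.

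At the other end, 40 sites had all 4 levels between 20% and 80%, and those with the smallest difference were alike within a few percentage points in both sexes. X position 18064144 was at 22.15% and 21.1% in D.sim and at 22.45% and 23.1% in D.yak, above D.mel at 16.85% and 14.55%. At 2R position 20802225 the levels were 51.05% and 39.35% in D.sim and 53.2% and 41.9% in D.yak. At 2R position 4771250, D.sim was at 52.65% and 50.4%, D.yak at 48.75% and 52% and D.mel at 40.75% and 39%. Sites 3L 9826400 and X 17824684, given above, complete these 5. Their likeness was chosen by the rule and is a description.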

How the data were processed

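The editing levels of whole bodies were measured by mmPCR-seq in D.sim and D.yak (8 libraries) and D.mel. Reads were split by barcode (FASTX Toolkit) and mapped with TopHat, each species to its own assembly, and only positions with at least 50 reads were used by the authors. Their deposited levels are a fraction from 0 to 1, in D.mel coordinates of build dm3 per the labels, with 1 value per species and sex, as a mean of libraries gives. How replicates were combined is not given in the sources used here. The table of the D.mel lines has 1 value per library, and 16 of its positions, damaged in the file, were restored and matched to the site list. Columns left unassigned numbered 0.

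Levels were converted to percent. The limma fit used log2((level + 0.01)/(1 − level + 0.01)), Benjamini-Hochberg adjustment and 2 residual degrees of freedom (3.09 prior). The fit was tested on data with known shifts beforehand. D.mel was placed by f = (D.mel − D.sim)/(D.yak − D.sim), with bounds of 0.25, 0.75 and 1.25. Named sites were the largest differences per direction and D.mel side past 10 percentage points in both sexes, the highest 3 presence/absence sites per direction, the 5 most alike at 20% to 80%, and their neighbors within 50 bp. Members and rules were chosen with earlier results of these data known. Gene groups were foreseen but not described, as no site was given a gene. In its analysis of site age, the study called a site that is not A in the genome unedited, and whether this altered the deposited levels is not given in the sources used here. R 4.3.3, limma 3.58.1 and Python 3.11.15 were used.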

Additional observations from a re-analysis of the deposited data

Results flagged for a closer look

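X position 11862801 was the only one of the 329 sites measured in both sexes at which the species differed by at least 10 percentage points in opposite directions in the sexes. D.yak minus D.sim was -14.8 percentage points in males (57.3% against 72.1%) and 10.4 in females (52.15% against 41.75%). D.mel was at 68.1% in males and 53.05% in females. The difference between the sexes was not tested, as each is 1 value.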

How the results depend on the processing

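The main setting put 31 sites past the threshold (24 higher in D.sim, 7 in D.yak). An offset of 0.05 gave 18 (12 and 6), of which 17 were among the 31. Untransformed levels gave 8 (6 and 2), with 7 among the 31, and no sex block gave 14 (10 and 4), all among the 31. An offset of 0.001 gave 11 higher in D.yak, and D.sim and D.yak alone gave 13. In all 8 settings, 7 sites were past it: 4 768364, 787813 and 787890, 3R 15056818 and 15056822, 3L 9826394 and X 17824691. At 5 percentage points in both sexes, 16 sites were higher in D.yak and 18 in D.sim, and at 20 percentage points 1 and 2. Pearson's r was 0.932 in males and 0.965 in females, and female rho at sites of ≥2% in both species was 0.904. Sites present in D.sim and absent in D.yak numbered 31 with presence at 5% and 6 when measured in both sexes, and the reverse numbered 2 with presence at 5%. With 20 percentage points, D.mel was with D.sim at 1 site, between at 0, beyond D.sim at 0 and beyond D.yak at 0. Males alone gave 1 with D.yak and 5 between, and females alone gave 2 beyond D.yak. The median of the D.mel lines, added after seeing the data, gave 2 with D.yak, 7 between, 0 beyond D.sim and 0 beyond D.yak. The causes were not tested. No single-site difference changed direction past the threshold, 8 of 272 values for single sites lost it and 8 gained it. No paired analysis was possible because the species columns carry no replicate numbers, and no replicate could be left out for the same reason. The depth of single values is unknown.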

Other observations

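At 159 of the 329 sites measured in both sexes, the larger sex difference of D.sim and D.yak exceeded the larger species difference. Some of the widest sex differences are given here, sites with a missing value included. At 3R position 191106, D.sim was at 83.55% in males and 0.75% in females, while D.mel was at 49.75% and 45.15% and D.yak females at 24.65%. At 3R position 14180916, D.yak was at 99.1% in males and 44.55% in females, and D.sim females were at 30.9%. At 3R position 21791365, females were above males, with 94.3% against 59.95% in D.sim and 92.1% against 72.05% in D.yak, whereas D.mel was at 92.3% in males and 94.15% in females. At 2L position 411895, males stood far above females in all 3 species, at 46.6% against 5.95% in D.sim, 57.65% against 6.35% in D.yak and 51.55% against 7.2% in D.mel. These sites were chosen after their values were seen.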
